A study of Mus musculus with 2 samples.

Results

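The cells described here were periosteal cells with transcripts of Rgs5, a regulator of G protein signalling that is used as a marker of perivascular cells, and no detected transcript of 11 endothelial genes. Markers other than Rgs5 bore out a perivascular name for only some of them. They were chosen by these measured values. A well was a member if it held at least 1 unique molecular identifier (UMI, 1 counted transcript molecule) of Rgs5 and 0 UMIs summed over Pecam1, Cdh5, Kdr, Eng, Emcn, Egfl7, Flt1, Tie1, Cldn5, Esam and Plvap. Of 503 wells with 200 or more detected genes, 58 were members. They were compared with the 385 wells without an Rgs5 UMI (Rgs5=0 wells) and with the 60 Rgs5 wells that held at least 1 UMI of the 11 endothelial genes. Of the 385 Rgs5=0 wells, 343 held no UMI of these 11 genes.

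The study traced periosteal progenitors with αSMACreER, in which the Acta2 promoter drives a tamoxifen-inducible Cre that switches on the Tomato reporter Ai9. Tomato+ cells from the periosteum of tibia and femur were sorted singly into 384-well plates and sequenced by a plate-based form of Drop-seq. All mice received 2 injections of tamoxifen at 75 mg/kg. Each time point was 1 pool of 2 to 3 mice. The 2-day pool (2 days of chase, 10.3 weeks of age) and the 6-week pool (43 days, 14.4 weeks) came from aSMACreER/Ai9/Col2.3GFP mice. The 13-week pool (96 days, 20.1 weeks) came from aSMACreER/Ai9/R26-M2rtTA/TetOP-H2B-GFPH2B mice that had received doxycycline for 5 weeks. The 2-day and 13-week cells shared a plate and the 6-week cells were on another, so time cannot be told apart from age, strain, doxycycline or plate.

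Pericytes wrap capillaries inside the basement membrane, receive PDGF-B from the endothelium through Pdgfrb and depend on Notch3 signalling. The ATP-sensitive potassium channel of mural cells is built from a pore subunit (Kcnj8) and a sulfonylurea receptor subunit (Abcc9), and it couples metabolism to vascular tone. Arteriolar smooth muscle carries more contractile protein (Acta2, Myh11, Tagln) than capillary pericytes do. Because Acta2 drives the Cre, labeled mural cells are part of what this system marks.

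Library depth was low and similar between pools: the 503 wells held 246 to 3928 UMIs, with medians of 795, 672 and 726 at 2 days, 6 weeks and 13 weeks. Members were shallower, with a median of 506 UMIs and 349 genes against 760 UMIs in Rgs5=0 wells and 712 in the Rgs5 wells with an endothelial UMI. Levels were therefore summed over wells and given as UMIs per 10000, and shares of wells with a UMI were compared after every well was thinned to 300 UMIs. That left 55 members, 371 Rgs5=0 wells and 57 Rgs5 wells with an endothelial UMI. Intervals are 95% (Poisson for levels, Clopper-Pearson for shares) and cover counting error only. Both plates used the same 384 barcodes. Of 137 plate positions kept on both, Rgs5 was detected on both plates at 9, where the product of the 2 plates' shares gives 10.2.

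In the 2-day pool 21 of 181 wells were members (11.6%, interval 7.33 to 17.2%). In the 6-week pool 20 of 189 were (10.6%, 6.58 to 15.9%), and in the 13-week pool 17 of 133 (12.8%, 7.63 to 19.7%). The intervals of all 3 pools overlapped. The difference between 13 weeks and 2 days was 1.18 percentage points (-6.6 to 8.96), and with 1 pool per time it was not tested.

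Rgs5, on which the wells were chosen, is given without a test. The members held 257 of the 645 Rgs5 UMIs of the kept wells, at 72.5, 78.6 and 62.3 UMIs per 10000 in the 2-day, 6-week and 13-week pools. The Rgs5 wells with an endothelial UMI held 68.1, 66.9 and 70.6. A member held a median of 3 Rgs5 UMIs and at most 20, and 21 of the 58 held exactly 1. A single Rgs5 UMI was also found in wells of other kinds. Among the 211 wells with 5 or more UMIs of the tendon list, 13 (6.16%) held Rgs5, at a median depth of 820 UMIs. Of these 13 wells, 10 were members, and 9 of the 10 held exactly 1 Rgs5 UMI. None of the 17 wells with 10 or more skeletal muscle UMIs held Rgs5.

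The other marker genes carried the perivascular label in members with 2 or more Rgs5 UMIs and not in most members with 1. The 16 detected pericyte genes other than Rgs5 (Acta2 among them) summed to 111 UMIs per 10000 (96.1 to 127) in the 37 members with 2 or more Rgs5 UMIs, and 34 of these 37 held at least 1 such UMI. In the 21 members with 1 Rgs5 UMI the sum was 13.7 (8.75 to 20.3), close to the 10.8 (9.71 to 11.9) of Rgs5=0 wells, and 10 of the 21 held none. No member with 1 Rgs5 UMI held Kcnj8, Abcc9, Higd1b, Vtn, Steap4, Cd36, Rasgrp2 or Gm11206. The fibroblast or progenitor list ran the other way, at 163 (145 to 183) in members with 2 or more Rgs5 UMIs, 432 (402 to 464) in those with 1 and 540 (532 to 547) in Rgs5=0 wells. The tendon or fibrous list stood at 21.5 (15.4 to 29.3), 106 (91.1 to 122) and 172 (167 to 176). In 19 of the 21 members with 1 Rgs5 UMI, fibroblast and tendon UMIs outnumbered pericyte UMIs, against 13 of the 37 with 2 or more. Most of these 13 were 6-week wells. In members with 2 or more Rgs5 UMIs the fibroblast list differed by pool. It lay at 302 to 500 UMIs per 10000 in the 6-week wells. In the 2-day and 13-week wells it was at 272 or below. The whole set is therefore called here by its rule, and main results are also given for members with 2 or more Rgs5 UMIs.

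**Figure D1:**
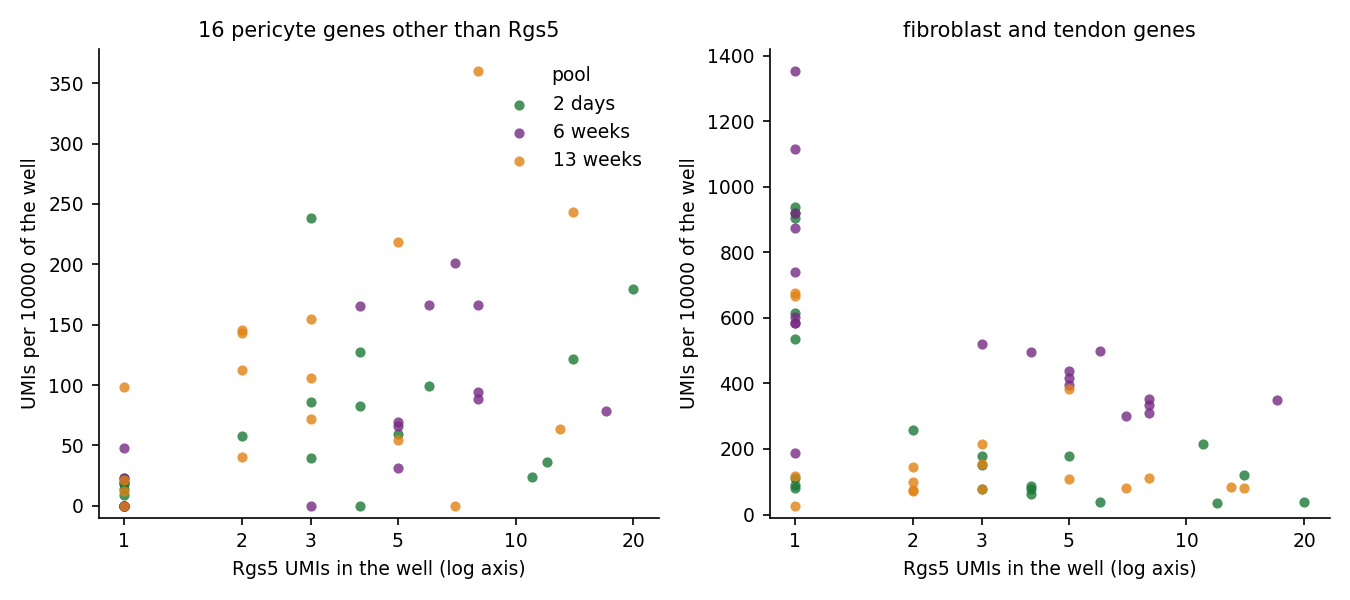
Each point is 1 of the 58 member wells, coloured by pool, against its Rgs5 UMIs on a log axis. The left panel shows the UMIs per 10000 of the 16 pericyte genes other than Rgs5 and the right panel those of the fibroblast and tendon lists, which lie highest in wells with 1 Rgs5 UMI.

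**Figure D2:**
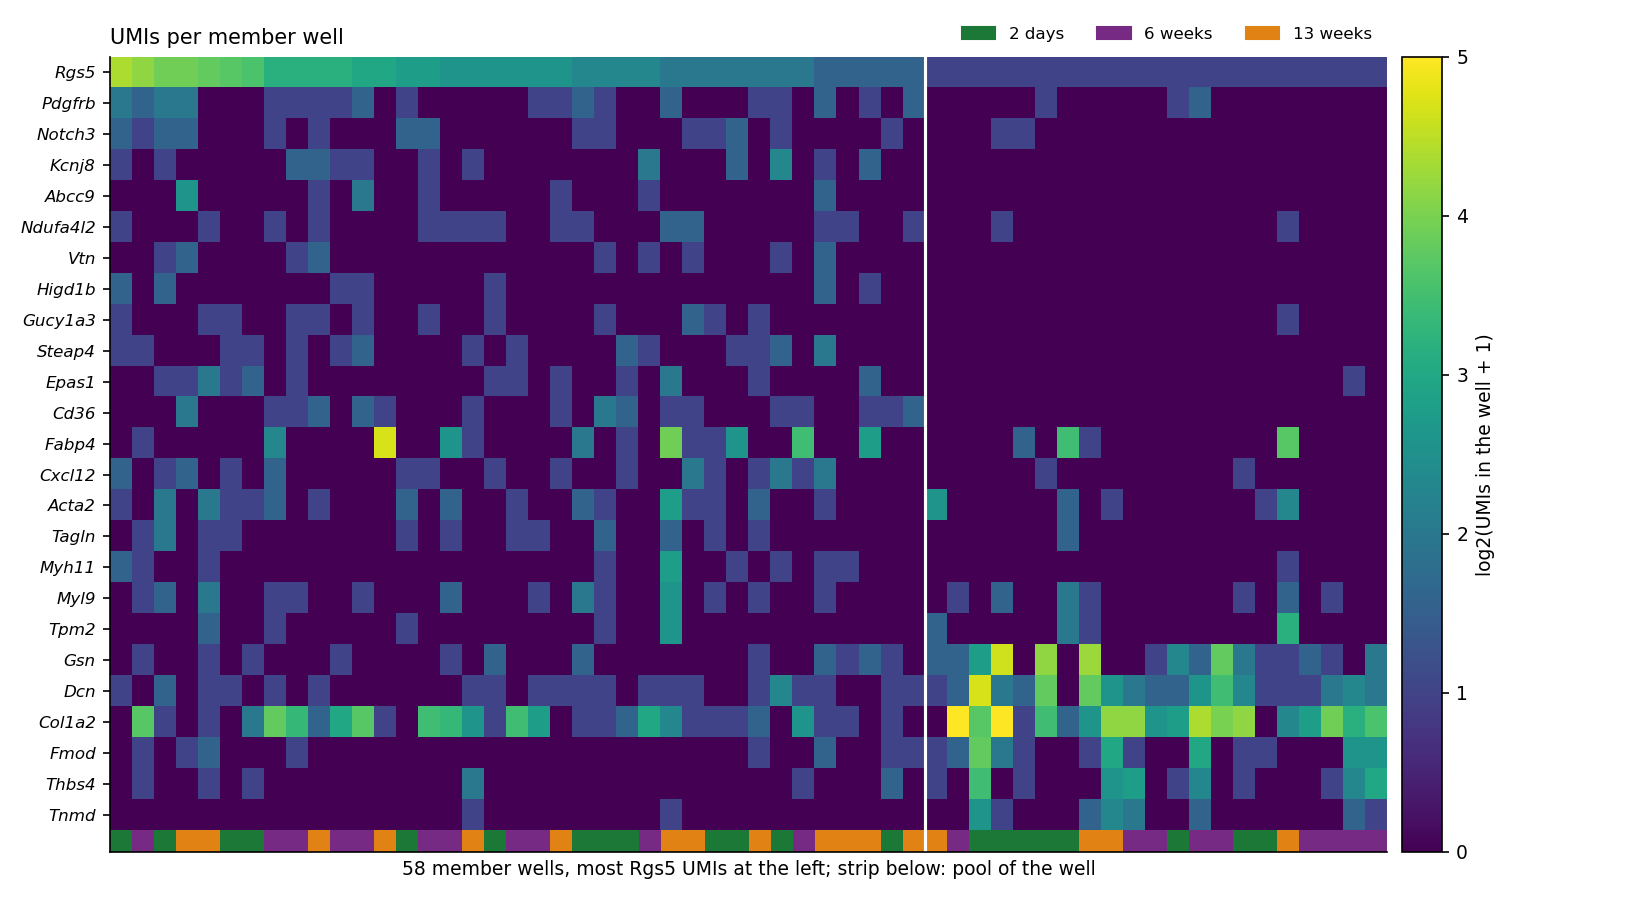
UMIs of 25 genes (rows) in the 58 member wells (columns), as log2(UMIs + 1), ordered by Rgs5 with the pool of each well in the strip below. The white line separates the 37 wells with 2 or more Rgs5 UMIs from the 21 with 1, which hold no Kcnj8 or Abcc9 UMI and most of the Gsn, Dcn, Fmod, Thbs4 and Tnmd UMIs.

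The 250 bases before the RefSeq transcription start (GRCm38.p6) are printed here for Rgs5, which chose the wells, and for 3 mural cell genes that were higher in members than in Rgs5=0 wells. The windows are Rgs5 at chr1:169655251-169655500 on the plus strand, Notch3 at chr17:32166891-32167140, Kcnj8 at chr6:142571615-142571864 and Abcc9 at chr6:142702275-142702524, the last 3 on the minus strand. Kcnj8 (chr6:142564837-142571614) and Abcc9 (chr6:142587862-142702315) are neighbours, with 16247 bases between the annotated genes (GENCODE M21, mm10). Capitals mark matches on either strand to the motifs searched. The core bound by the Notch effector RBPJ was searched as TGGGAA. The core of the hypoxia response element was searched as ACGTG and, in its second form, as the word GCGTG, and the former also lies within an E-box. The RBPJ core was in 21.6% of 32851 RefSeq promoter windows of this length and the hypoxia core in 38.6%. Abcc9 had 1 match to the RBPJ core, 221 bases before the start. Kcnj8 had 1 hypoxia core match at 221 bases and Notch3 had 2, at 186 and 181 bases. TATAAA, found in 12.4% of windows, was in none of the 4. These matches describe the letters only.
Rgs5: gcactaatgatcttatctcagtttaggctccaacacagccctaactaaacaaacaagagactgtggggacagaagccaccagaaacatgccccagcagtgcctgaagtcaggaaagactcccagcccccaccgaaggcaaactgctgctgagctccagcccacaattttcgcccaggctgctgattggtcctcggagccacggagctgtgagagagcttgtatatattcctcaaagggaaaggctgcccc
Notch3: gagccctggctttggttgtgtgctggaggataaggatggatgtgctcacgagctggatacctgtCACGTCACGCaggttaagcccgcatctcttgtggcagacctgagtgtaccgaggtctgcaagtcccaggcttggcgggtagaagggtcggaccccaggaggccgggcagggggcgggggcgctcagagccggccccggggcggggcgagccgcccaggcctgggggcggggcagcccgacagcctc
Kcnj8: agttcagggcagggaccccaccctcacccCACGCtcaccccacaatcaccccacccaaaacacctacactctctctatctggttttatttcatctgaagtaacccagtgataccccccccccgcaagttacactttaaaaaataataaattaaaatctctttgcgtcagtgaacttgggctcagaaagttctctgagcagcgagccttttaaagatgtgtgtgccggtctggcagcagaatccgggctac
Abcc9: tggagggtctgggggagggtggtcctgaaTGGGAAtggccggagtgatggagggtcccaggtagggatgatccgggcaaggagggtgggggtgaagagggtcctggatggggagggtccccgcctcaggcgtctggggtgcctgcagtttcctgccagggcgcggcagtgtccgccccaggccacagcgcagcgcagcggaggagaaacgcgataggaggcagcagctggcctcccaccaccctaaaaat

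The members were then compared with Rgs5=0 wells over the 3 pools, to ask which transcripts accompanied Rgs5. Wells of a class were summed within each pool, and 2477 genes with 30 or more UMIs over all kept wells were fitted (edgeR quasi-likelihood test with pool as a block, n = 3 pools, Benjamini-Hochberg adjustment). Log2 differences below are members minus the other wells, ± SE. At an adjusted p under 0.05, 22 genes were higher in members (0.888% of those tested) and 51 lower (2.06%). The median log2 difference of all genes tested was -0.41. When the sums were scaled by library size alone it rose by 0.28 to -0.14, and the split became 32 higher and 30 lower, that is 51.6% higher in place of 30.1%. With members of 2 or more Rgs5 UMIs, 25 of 2297 genes were higher (1.09%) and 101 lower (4.4%), and 19 of the 22 and 44 of the 51 genes above were called again. Without the 2-day, 6-week or 13-week pool, 4, 14 and 12 genes were higher and 8, 24 and 11 lower.

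The genes higher in members included mural cell identity genes. Of the 9 pericyte genes other than Rgs5 that passed the filter, 7 rose and none fell (Pdgfrb, Notch3, Kcnj8, Abcc9, Higd1b, Ndufa4l2 and Vtn), with a median log2 difference of 2.88 against -0.41 over all genes. The filter summed all kept wells, members included, so a gene could pass it through the classes where it was high. The share of 7 in 9 therefore depends in part on the filter, and this holds for the other lists as well. The count depended on single pools: 2 of 6 tested rose without the 2-day pool (Kcnj8 and Abcc9), 5 of 5 without the 6-week pool and 3 of 5 without the 13-week pool, and every one tested had a difference above 0. Kcnj8 rose in all 3. With read counts 2 of 9 rose. The other 2 tested, Acta2 and Cspg4, did not pass, and the other detected pericyte genes were below the filter. In another setting Rgs5 and the endothelial genes were read on one part of each well's UMIs and the levels on the other part. There 2 pericyte genes could be tested and 1 rose (Pdgfrb), and of all genes 7 were higher and 29 lower. With wells thinned to 300 UMIs 2 of 3 tested pericyte genes rose. Without the filter on low counts 3 of 16 did (Kcnj8, Abcc9 and Art3). Against Rgs5=0 wells without an endothelial UMI 6 of 7 rose.

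Kcnj8 was at 5.86, 7.39 and 5.12 UMIs per 10000 in members at 2 days, 6 weeks and 13 weeks, and at 0.0681, 0.416 and 0.116 in Rgs5=0 wells. The lowest member pool was above the highest Rgs5=0 pool, and the log2 difference was 4.53 ± 0.68 (edgeR adjusted p = 1.4e-08). At 300 UMIs per well, Kcnj8 was detected in 18.2% of members (9.08 to 30.9%) and 1.08% of Rgs5=0 wells (0.295 to 2.74%). Its partner subunit Abcc9 was at 0, 4.62 and 7.68 in members and at 0, 0.167 and 0.116 in Rgs5=0 wells. The difference was thus present at 6 and 13 weeks only, and at 2 days neither class held a UMI (the interval of the members reached 2.7). Over the 3 pools it was 4.71 ± 0.87 (edgeR adjusted p = 1.7e-05). All 14 Abcc9 UMIs were in 7 members, and 15 members held a UMI of either subunit.

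Notch3, the Notch receptor of mural cells, was at 11, 3.7 and 3.41 UMIs per 10000 in members and at 0.681, 0.666 and 0.698 in Rgs5=0 wells. The groups did not overlap, and the log2 difference was 2.88 ± 0.58 (edgeR adjusted p = 8.3e-05). Its highest member value was at 2 days. Pdgfrb, the PDGF receptor by which pericytes are recruited, was at 9.52, 9.24 and 11.1 in members and at 2.25, 2.58 and 1.28 in Rgs5=0 wells, again without overlap (1.94 ± 0.41, edgeR adjusted p = 0.00025). Pdgfrb UMIs were also seen in 62 of the 385 Rgs5=0 wells. At equal depth it was detected in 21.8% of members (11.8 to 35%) and 4.85% of Rgs5=0 wells (2.9 to 7.56%).

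Higd1b, Ndufa4l2 and Vtn, which are used as capillary pericyte markers, rose by 3.12 ± 0.83, 2.89 ± 0.63 and 2.76 ± 0.76 (edgeR adjusted p = 0.0099, 0.00044 and 0.014). Without wells of 10 or more immune UMIs, 5 of 8 tested pericyte genes rose, and Higd1b and Vtn were not among these 5. Ndufa4l2 was at 2.93, 2.77 and 10.2 UMIs per 10000 in members against 0.409, 0.666 and 0.465 in Rgs5=0 wells, and its 19 UMIs lay in 17 members. Further markers are given by their values. Cspg4, the NG2 proteoglycan, was at 0, 1.85 and 6.83 in members and 0.136, 0.749 and 0.465 in Rgs5=0 wells (2.2 ± 0.79, edgeR adjusted p = 0.13). Mcam (CD146), below the filter, was at 1.93 (7 UMIs) against 0.142 (5 UMIs) over all pools.

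Genes of vascular signalling were next. Of 10 tested genes of the list of vasoactive receptors, ion channels and G proteins, 3 rose and none fell, namely both channel subunits and Gucy1a3 (Gucy1a1), a subunit of the nitric oxide receptor guanylate cyclase. Gucy1a3 was at 3.66, 2.77 and 5.12 UMIs per 10000 in members and 0, 0.167 and 0.465 in Rgs5=0 wells (3.96 ± 0.79, edgeR adjusted p = 8.3e-05). The endothelin receptor Ednra, below the filter, had 8 UMIs in 8 members (2.21) against 0.453 in Rgs5=0 wells. Rasgrp2, a guanine nucleotide exchange factor for Rap1, was at 1.46, 4.62 and 5.12 in members and at 0, 0.5 and 0 in Rgs5=0 wells (4.01 ± 0.83, edgeR adjusted p = 0.00016). Of 7 tested genes of Notch, PDGF and angiopoietin signalling, Notch3 and Pdgfrb alone passed. The ligands Pdgfb, Angpt1, Angpt2, Jag1 and Pdgfa had 0, 1, 2, 4 and 7 UMIs among the 36194 of the members. The angiopoietin receptor Tek, also on the endothelial list that the rule did not use, had 0. The median log2 difference of the 7 was -0.11, with 3 above 0. The summed level of the list was 29.3 in members and 12.4 in Rgs5=0 wells, with Notch3 and Pdgfrb giving 23 and 36 of its 106 UMIs in members.

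Fatty acid handling and hypoxia genes formed the third group, with 4 of 6 tested genes higher and none lower (median 2.5). Fabp4, a fatty acid binding protein of capillary endothelium and adipocytes, was at 16.1, 18.5 and 51.2 UMIs per 10000 in members and at 0.613, 2.91 and 10.1 in Rgs5=0 wells (2.63 ± 0.31, edgeR adjusted p = 9.9e-14). Both classes were highest at 13 weeks, where 1 member well held 25 of the 60 Fabp4 UMIs. The fatty acid transporter Cd36 was at 5.13, 4.62 and 11.1 in members and 0.204, 0.333 and 2.21 in Rgs5=0 wells (2.84 ± 0.47, edgeR adjusted p = 5e-07), with 17 of the 58 members holding a UMI. Epas1 (HIF-2α), an oxygen-regulated transcription factor, was at 4.39, 2.77 and 9.38 against 0.409, 0.666 and 1.63 (2.37 ± 0.52, edgeR adjusted p = 0.00051). The last of the 4 was Ndufa4l2. Fabp4 and Cd36 are also on the endothelial list that the rule did not use, and that list as a whole stood at 46.1 (39.4 to 53.7) in members and 19.2 (17.8 to 20.7) in Rgs5=0 wells. The part of endothelial RNA in these differences was not tested. In every alternative in which they could be tested, Fabp4, Cd36 and Kcnj8 stayed higher in members past the threshold. Kcnj8 could not be tested where rule and levels were read on separate parts of each well.

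Other called genes had no common role. Steap4, a metalloreductase, was at 5.86, 6.47 and 4.27 UMIs per 10000 in members and at 1.16, 0.833 and 0.465 in Rgs5=0 wells (2.42 ± 0.58, edgeR adjusted p = 0.0023). All 20 of its member UMIs were in wells with 2 or more Rgs5 UMIs. Sept4, a septin, and Gm11206, a predicted gene, rose by 2.5 ± 0.61 and 4.46 ± 0.84 (edgeR adjusted p = 0.0035 and 2e-05). The matrix metalloproteinase inhibitor Timp3 was at 54.2, 21.3 and 19.6 in members and at 15.4, 13.3 and 8.49 in Rgs5=0 wells (1.06 ± 0.3, edgeR adjusted p = 0.017). It was thus the most abundant of the higher genes and the one with the smallest difference. The chemokine Cxcl12 was at 9.52, 3.7 and 8.53 against 2.25, 1.92 and 3.37 (1.29 ± 0.4, edgeR adjusted p = 0.045). S100a8, a neutrophil gene, was also called, but 22 of its 24 member UMIs were in 1 well of the 13-week pool that held 42 immune UMIs. Without wells of 10 or more immune UMIs, a setting chosen after seeing the data, 17 genes were higher and 42 lower.

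**Figure D3:**
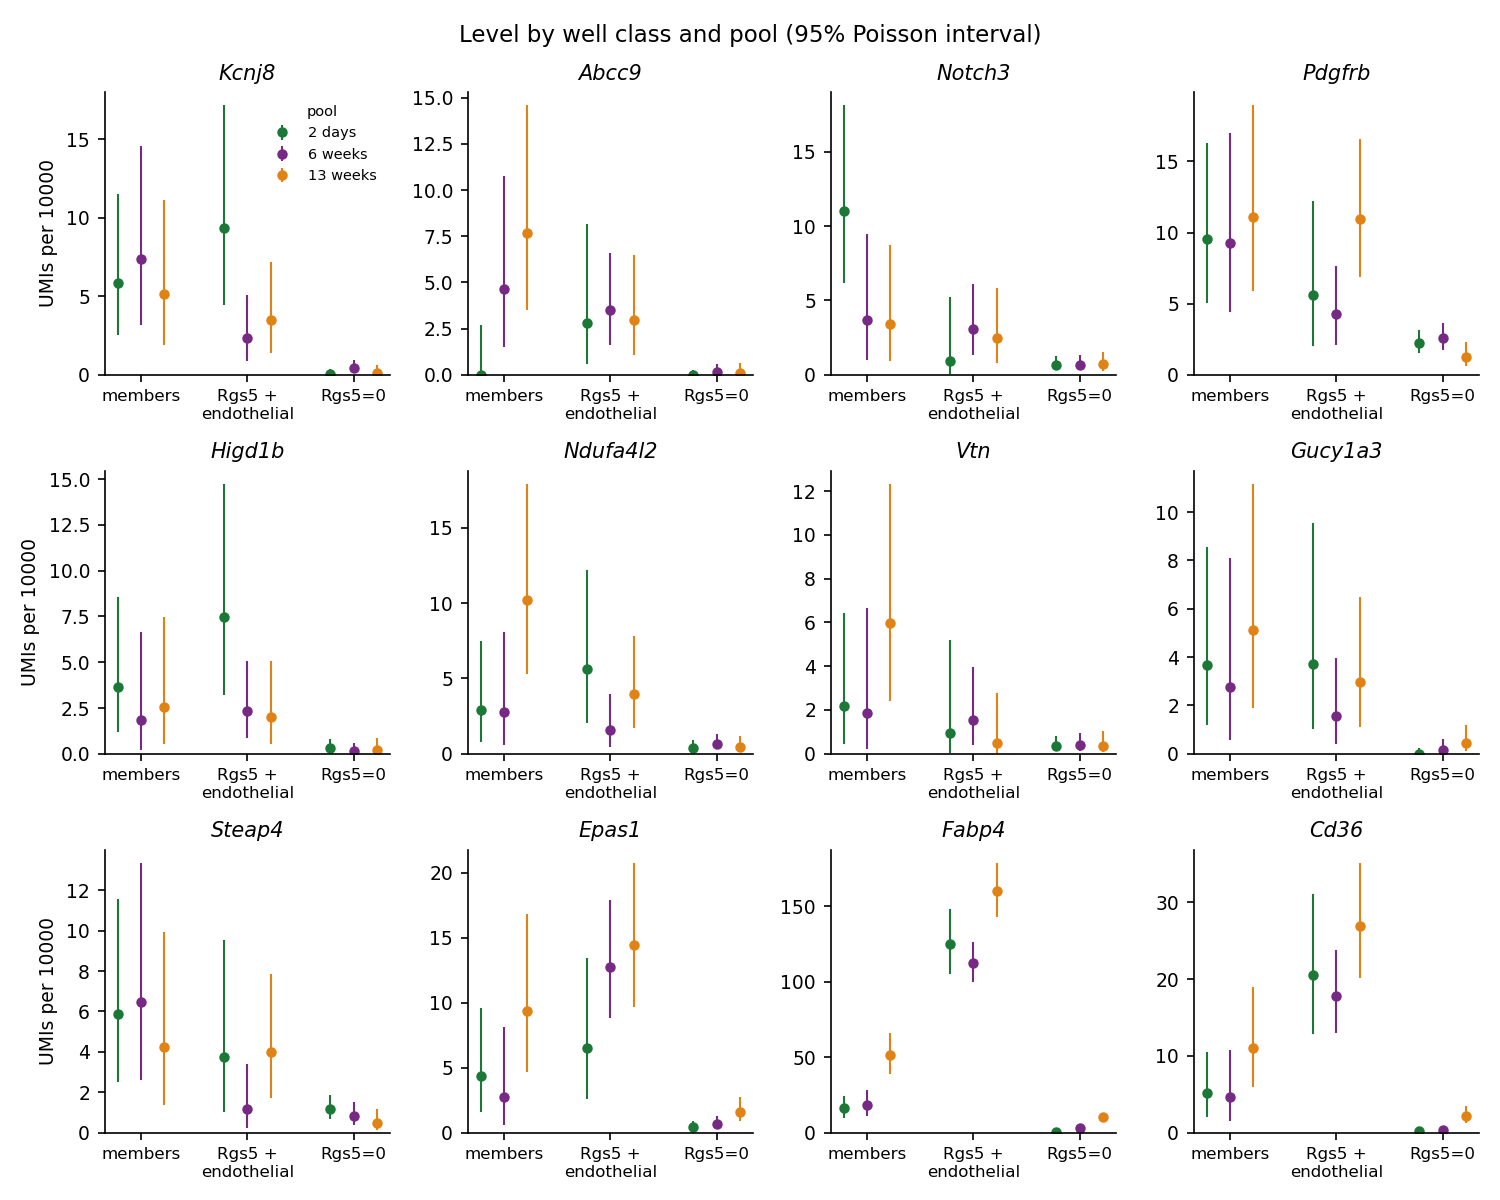
Levels of 12 genes called higher in members than in Rgs5=0 wells, in UMIs per 10000 by well class (x axis) and pool (colour), with 95% Poisson intervals. Over all pools Kcnj8, Abcc9, Notch3 and Pdgfrb are at 6.08, 3.87, 6.35 and 9.95 in members and 4.06, 3.18, 2.47 and 6.88 in Rgs5 wells with an endothelial UMI, while Fabp4, Cd36 and Epas1 are highest in the latter.

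The contractile program was only in part higher. Of 12 tested smooth muscle genes, Myl9 and Sncg rose and none fell, with a median of 0.96. Myl9, the smooth muscle myosin light chain, was at 9.52, 8.32 and 11.1 UMIs per 10000 in members and at 2.04, 2.33 and 5.35 in Rgs5=0 wells (1.37 ± 0.38, edgeR adjusted p = 0.017). Acta2, whose promoter labeled these cells, was at 11, 4.62 and 20.5 in members and at 3.88, 3.83 and 7.44 in Rgs5=0 wells, and it did not pass the test (0.94 ± 0.35, edgeR adjusted p = 0.15), though it did when scaled by library size alone, with edgeR's filterByExpr, without the deepest 5% of wells or without the 6-week pool. At equal depth Acta2 was detected in 21.8% of members (11.8 to 35%) and in 8.36% of Rgs5=0 wells (5.75 to 11.7%). Tagln (4.97 against 1.36 over all pools) and Myh11 (4.42 against 1.61) did not pass either (1.52 ± 0.56 and 1.08 ± 0.58, edgeR adjusted p = 0.13 and 0.46). In members with 2 or more Rgs5 UMIs the called genes were Tagln (2.05 ± 0.62, edgeR adjusted p = 0.022) and Myl9 (1.52 ± 0.46, 0.023), while Sncg did not pass (2.52 ± 0.9, 0.078). Cnn1, a marker of mature smooth muscle, had 0 UMIs in members and 2 in Rgs5=0 wells. Of 4 tested smooth muscle transcription factors edgeR and DESeq2 called 0 (1 at an unadjusted p under 0.05), and Myocd had 0 UMIs in members and 1 in Rgs5=0 wells.

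Of the 58 members, 54 held a smooth muscle UMI. Among the 58 members, 4 singled out after their values were seen held 20 or more smooth muscle UMIs. These 4 wells held 123 of the 359 smooth muscle UMIs (34.3%). Their median depth was 902.5 UMIs against 506 over all members, and their high contractile levels follow from how they were picked. They had 3350 UMIs in all, and 3 were from the 13-week pool and 1 from the 2-day pool. In these Acta2 was at 44.8 UMIs per 10000, Tpm2 at 53.7, Myl9 at 38.8, Myh11 at 23.9 and Fabp4 at 107, and Kcnj8, Abcc9, Notch3, Vtn and Higd1b had 0 UMIs. In the 35 members with 2 or more Rgs5 UMIs and fewer smooth muscle UMIs, Acta2 was at 13.2, Tpm2 at 1.8, Myh11 at 4.81 and Fabp4 at 37.9, at a median depth of 419 UMIs, while Kcnj8 was at 13.2, Abcc9 at 8.42, Notch3 at 12.6 and Pdgfrb at 18. Of the 4 wells, 2 held exactly 1 Rgs5 UMI, as did no well of the 35, and no member with 1 Rgs5 UMI held Kcnj8, Abcc9, Vtn or Higd1b. These differences within members have no test. Among single members, 15 held Kcnj8 or Abcc9, 17 held Fabp4 and 3 held both, where the product of the shares gives 4.4 wells.

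The 51 genes lower in members included genes of fibroblasts and tendon, 4 of skeletal muscle, 4 hemoglobin genes and Ly6c1. Ly6c1 is on the endothelial list that the rule did not use. The rule kept endothelial UMIs out of members but not out of Rgs5=0 wells, so the lower Ly6c1 is not independent of the rule. Against the 343 Rgs5=0 wells without an endothelial UMI, 24 genes were higher and 40 lower. Of 16 tested fibroblast or progenitor genes 8 fell and none rose (median -1.24), and of 14 tendon or fibrous genes 8 fell and none rose (median -1.88). In members with 2 or more Rgs5 UMIs, 12 of 16 and 10 of 14 fell. With DESeq2 on all members, 3 of 16 and 4 of 14 passed, as did 0 of 10 skeletal muscle and 1 of 4 hemoglobin genes.

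Igfbp6, an IGF-binding protein of fibroblasts, was at 2.93, 5.55 and 0 UMIs per 10000 in members and at 17.2, 18.3 and 17.7 in Rgs5=0 wells (-3 ± 0.43, edgeR adjusted p = 3.1e-09). Tenomodulin (Tnmd), a tendon differentiation marker, was at 4.39, 7.39 and 6.83 against 20.3, 21.9 and 18.5 (-2.01 ± 0.37, edgeR adjusted p = 1.7e-05). Of the 10 members with a Tnmd UMI, 8 held a single Rgs5 UMI. The small leucine-rich proteoglycan osteoglycin (Ogn) was at 0.732, 4.62 and 2.56 against 9.87, 11.3 and 13.4 (-2.48 ± 0.45, edgeR adjusted p = 1.7e-05). Thrombospondin 4 (Thbs4), of tendon matrix, was at 11.7, 22.2 and 8.53 against 30.6, 43.5 and 39.1 (-1.71 ± 0.32, edgeR adjusted p = 1.7e-05). S100a4, Prg4, Cpxm2 and Prelp fell as well (-2.35, -2.35, -2.04 and -2.1). For Igfbp6, Tnmd, Ogn and Thbs4 the highest member pool lay below the lowest Rgs5=0 pool.

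Decorin (Dcn), a collagen-binding proteoglycan, fell in each pool, from 77.7, 91.1 and 63.7 in Rgs5=0 wells to 45.4, 34.2 and 24.7 in members (-1.45 ± 0.28, edgeR adjusted p = 5.4e-05). The type I collagen chain Col1a2 did not behave alike in all pools. It was at 67.4 and 37.5 in members of the 2-day and 13-week pools, below the 203 and 111 of Rgs5=0 wells, but at 242 against 225 at 6 weeks (-1.41 ± 0.27, edgeR adjusted p = 3.8e-05). In the 6-week pool Col1a2 was also high in Rgs5 wells with an endothelial UMI, at 101 against 14.9 and 9.95 in the other pools. At 6 weeks, time and plate cannot be told apart. Timp3 was the exception among 17 tested genes of interstitial matrix, of which 7 fell and it alone rose.

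**Figure D4:**
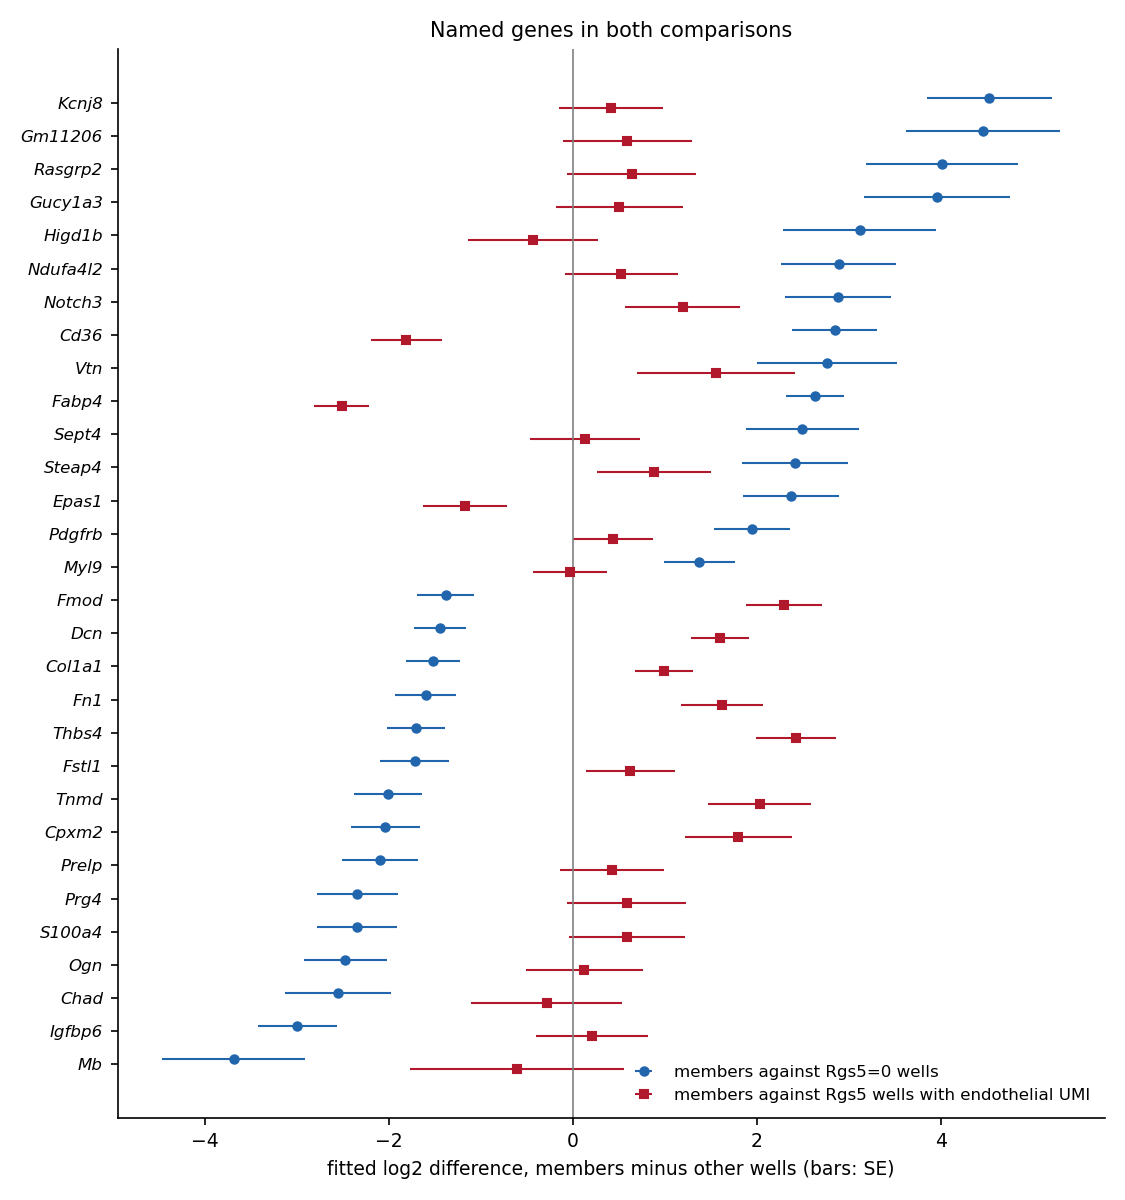
Fitted log2 differences (points) with SE (bars) of the 30 genes named by the smallest p-values against Rgs5=0 wells, in both comparisons. The connective tissue genes lie below 0 against Rgs5=0 wells (circles) and mostly above 0 against Rgs5 wells with an endothelial UMI (squares).

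Against the 60 Rgs5 wells with an endothelial UMI, the members showed no difference in pericyte genes that passed the test. Of 2477 genes, 22 were higher in members (0.888%) and 34 lower (1.37%). Of the 9 tested pericyte genes 0 were called by edgeR or DESeq2, and 0 had an unadjusted p under 0.05 (median 0.53, against -0.04 over all genes). Kcnj8 was at 6.08 UMIs per 10000 over all pools in members and 4.06 in these wells (0.41 ± 0.57, edgeR adjusted p = 0.92), Abcc9 at 3.87 and 3.18 (0.25 ± 0.67, 0.98), Pdgfrb at 9.95 and 6.88 (0.44 ± 0.43, 0.86) and Notch3 at 6.35 and 2.47 (1.19 ± 0.62, 0.52). At equal depth Kcnj8 was detected in 18.2% of members (9.08 to 30.9%) and 10.5% of these wells (3.96 to 21.5%), and the intervals overlapped. These values do not show that the classes were alike. Without the 2-day, 6-week or 13-week pool, 7, 13 and 16 genes were higher in members and 10, 12 and 18 lower. The same members enter both comparisons.

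The genes lower in members were endothelial. Of 13 tested endothelial genes that the rule did not use, 9 fell and none rose (median -2.86). Since the rule removed wells with 11 other genes of that cell type, this is a description of the choice. Gpihbp1, which anchors lipoprotein lipase on capillaries, had 0 UMIs in members and was at 16.8, 12.4 and 15.4 per 10000 in the endothelial class, at least 17.2-fold higher than a floor of 3 UMIs over the members. Ly6c1 was at 1.46, 0.924 and 3.41 against 32.7, 19.7 and 24.4 (-3.75 ± 0.47, edgeR adjusted p = 2e-12). Fabp4 was at 16.1, 18.5 and 51.2 against 125, 113 and 160 (-2.52 ± 0.3, edgeR adjusted p = 1.5e-13) and Cd36 at 5.13, 4.62 and 11.1 against 20.5, 17.8 and 26.9 (-1.81 ± 0.39, edgeR adjusted p = 0.00034). Cav1 and Aqp1, a caveolin and a water channel of capillary endothelium, fell too (-2.76 ± 0.49 and -3.01 ± 0.57, edgeR adjusted p = 5.9e-06 and 3.3e-05). The summed levels of Fabp4 and Cd36 in members thus lay between those of the Rgs5=0 wells and the endothelial class, but single members did not share this evenly: 41 of the 58 held no Fabp4 UMI and 8 held 87 of the 102. Members with 2 or more Rgs5 UMIs still held 70.4 UMIs per 10000 (58.8 to 83.5) of the endothelial genes not used, against 19.2 (17.8 to 20.7) in Rgs5=0 wells and 261 (248 to 275) in the endothelial class. Fabp4 and Cd36 made up 102 of the 131 such UMIs.

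Beta-2-microglobulin (B2m) and H2-K1, of class I antigen presentation, fell as well, from 35.5, 43.3 and 45.8 to 11, 20.3 and 22.2 UMIs per 10000 for B2m (-1.34 ± 0.31, edgeR adjusted p = 0.0018). Cxcl12 was at 7.46 in members and 16.9 in the endothelial class over all pools (-1.25 ± 0.38, edgeR adjusted p = 0.0495). Of the 22 genes higher in members, 6 were on the fibroblast and 4 on the tendon list, among them Gsn (32 against 6.53, 2.12 ± 0.34, edgeR adjusted p = 4e-07), Thbs4 (13.8 against 2.47, 2.42 ± 0.44, 8.9e-06) and Fmod (16 against 3, 2.3 ± 0.41, 8.1e-06). With 2 or more Rgs5 UMIs required in both classes, which changes the members and the comparison wells at once, 2 genes were higher (0.0871% of 2297) and 14 lower (0.609%), none of the fibroblast or tendon genes was called, and Gsn was no longer above 0 (-0.18). Of the 22 genes, 18 kept their sign and 1 was called again.

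**Figure D5:**
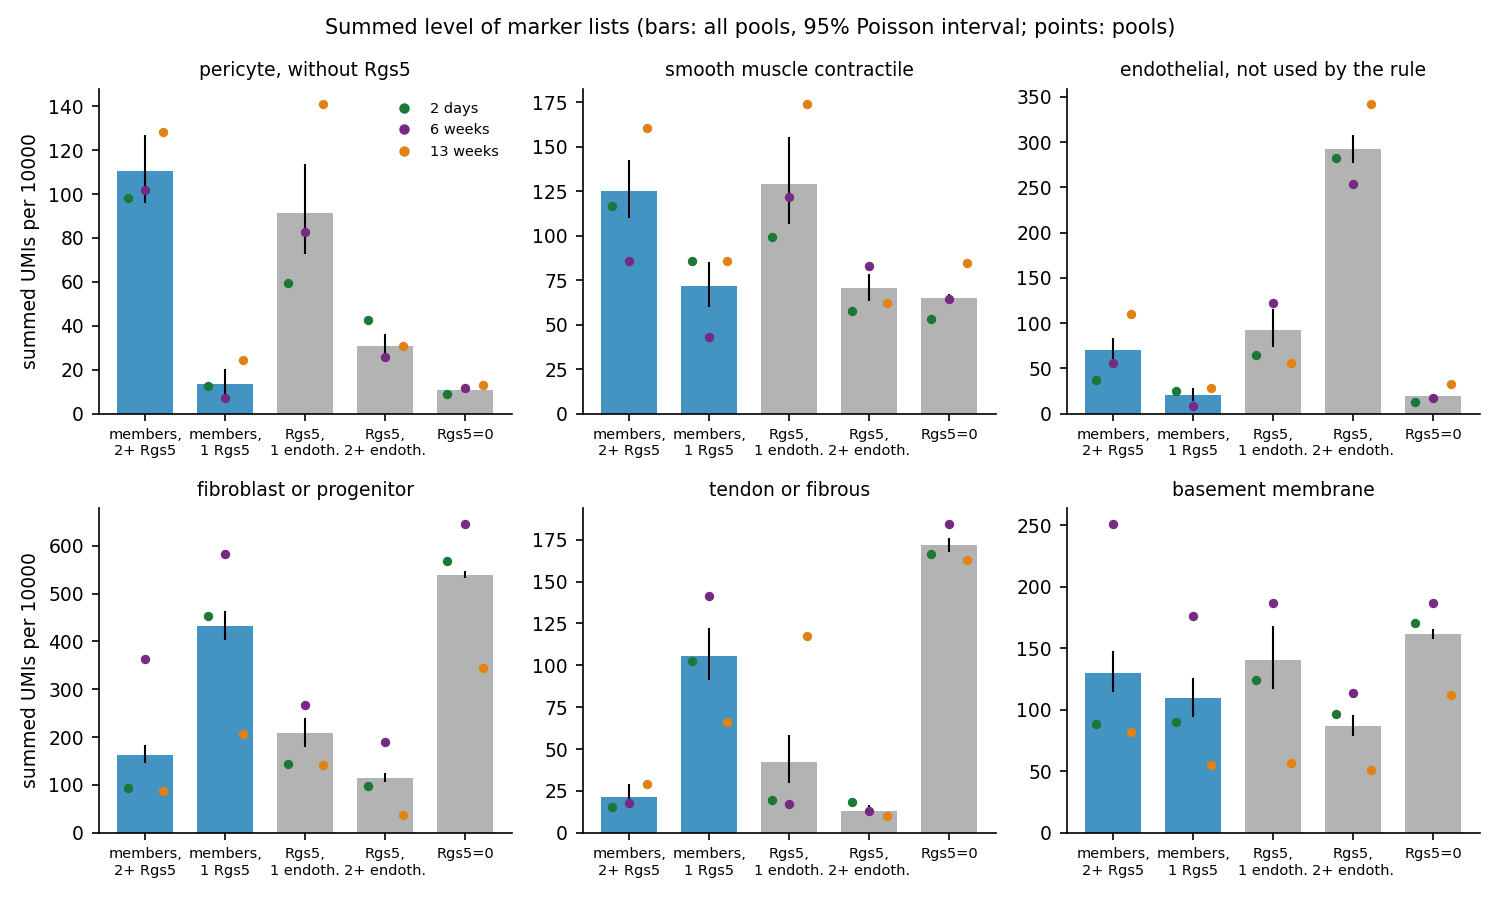
Summed UMIs per 10000 of 6 marker lists in members with 2 or more and with 1 Rgs5 UMI, in Rgs5 wells with 1 and with 2 or more endothelial UMIs, and in Rgs5=0 wells. Bars show all pools with 95% Poisson intervals and points show single pools. Members with 1 Rgs5 UMI lie near Rgs5=0 wells in pericyte genes, and Rgs5 wells with 1 endothelial UMI lie near members with 2 or more Rgs5 UMIs.

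The wells on either side of each threshold are given as description. The 9 members nearest the gene minimum (203 to 232 genes) held 2 to 12 Rgs5 UMIs and 103 UMIs per 10000 of the pericyte genes other than Rgs5. The 9 wells just under it (151 to 198 genes) that met the rest of the rule held 1 to 8 Rgs5 UMIs and 89.9 per 10000, so the gene minimum left out wells with a near marker level. The 5 members with exactly 2 Rgs5 UMIs were at 108. The 17 Rgs5 wells with exactly 1 endothelial UMI were at 91.4, with 208 of the fibroblast list and 92.6 of the endothelial genes not used, against 30.7, 115 and 292 in the 43 wells with 2 or more. When the rule was read on wells thinned to 300 UMIs, 44 of 55 members remained members and 11 lost Rgs5, while 6 of the 57 wells of the endothelial class became members.

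Across the 3 pools, values within members are described without a test. Rgs5 itself differed little (72.5, 78.6 and 62.3 UMIs per 10000). Among genes with 50 or more UMIs in members, the largest ratios of 13 weeks over 2 days were those of Fabp4, B2m, Rn7sk, Sparcl1 and Rps20, and the smallest those of Col3a1, Cst3, S100a6, Timp3 and Col1a1. Fabp4 went from 16.1 (interval 10.1 to 24.4) at 2 days to 51.2 (39.1 to 65.9) at 13 weeks, and in Rgs5=0 wells from 0.613 to 10.1. At 13 weeks 3 of the 17 members held 51 of the 60 Fabp4 UMIs and 10 held none, and without the highest well the level was 30.8 (21.5 to 42.9). Col3a1 went from 49.8 to 11.9 in members and from 80.3 to 28.3 in Rgs5=0 wells. Col1a1 was at 22, 105 and 9.38 in members and 78, 112 and 30.7 in Rgs5=0 wells. Fabp4, Col3a1 and Col1a1 thus differed in the same direction between these pools in Rgs5=0 wells, while B2m (11 to 22.2 in members) was at 14.8 and 15 there and Rps20 (14.6 to 22.2) went from 18.1 to 13. The make-up of the Rgs5=0 wells differed too. Those without a UMI of the 11 endothelial genes were 138 of 146 at 2 days and 72 of 95 at 13 weeks. The part of this in the Fabp4 values was not tested. Timp3 went from 54.2 to 19.6 in members and from 15.4 to 8.49 in Rgs5=0 wells. The pericyte genes other than Rgs5 summed to 52.7, 50.8 and 87.9. In the members with 2 or more Rgs5 UMIs they summed to 98.1 (75.4 to 125), 102 (75.7 to 134) and 128 (103 to 157), and these intervals overlapped. The members with 1 Rgs5 UMI, which held few of these genes, numbered 8 of 21, 9 of 20 and 4 of 17. The smooth muscle list summed to 100.3, 62.8 and 131. At 13 weeks 3 wells held 100 of its 154 UMIs, and the other 14 were at 58.5 (43.9 to 76.3).

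The most abundant transcripts of members other than mitochondrial and ribosomal protein genes were Gm26924, Malat1, Col1a2, Sparc, Rgs5, Mgp, Rn7sk, Col1a1, Cst3 and Fth1. Gm26924 was at 787 UMIs per 10000 in members and 593 in Rgs5=0 wells (0.03 ± 0.25, edgeR adjusted p = 0.97). Sparc, a matrix glycoprotein, was at 87.9 and 136 (-1.04 ± 0.27, edgeR adjusted p = 0.0071). Basement membrane genes summed to 120 (109 to 132) in members and 162 (158 to 166) in Rgs5=0 wells, with Vtn higher and Sparc lower among 12 tested. Col4a1 and Col4a2, the main collagens of the vascular basement membrane, were at 5.53 and 9.95 in members against 3.43 and 6.12 and did not pass (0.44 ± 0.45 and 0.4 ± 0.35, edgeR adjusted p = 0.79 and 0.72). Of 16 immediate early genes edgeR and DESeq2 called 0 in either comparison (1 in each at an unadjusted p under 0.05), and the list stood at 100.02 in members and 78.1 in Rgs5=0 wells.

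Fibroblast and tendon markers, given above, were abundant in members, and other cell types varied. The adipocyte list had 0 UMIs and the skeletal muscle list 24 (6.63 per 10000, against 31.4 in Rgs5=0 wells, where 4 of 10 tested genes were higher). Hemoglobin genes had 10 UMIs in 10 members, at most 1 each, while single wells of the Rgs5=0 and endothelial classes held up to 440 and 446, and all 4 tested were lower in members than in Rgs5=0 wells. Without wells of over 100 hemoglobin UMIs, 21 genes were higher and 51 lower than in Rgs5=0 wells. The immune list had 45 UMIs, 42 of them in 1 well. The satellite cell list was at 8.84. The osteoblast list was at 20.4, with 3.66 at 2 days, 0 at 13 weeks and 63.8 at 6 weeks. At 6 weeks it was above the 50.8 of the pericyte genes other than Rgs5. Of 5 tested osteoblast genes none was called in either comparison. None was above 0 against Rgs5=0 wells (median -0.47), and 4 were above 0 against the endothelial class (median 1.15). The share of mitochondrial UMIs had a median of 6.16% in members and 4.67% in Rgs5=0 wells. Its part in the differences was not tested.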

How the data were processed

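The deposited values were UMI counts per gene and well for both plates. Per the labels, the authors demultiplexed reads with bcl2fastq 2.18.0.12, aligned them with STAR 2.5.4a to GRCm38 and processed them with Drop-seq tools and Picard 2.9.3, collapsing UMIs without normalization or filtering of wells. Read counts, deposited beside them by the authors, served an alternative only.

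Of 600 wells named by time point, 503 with 200 or more genes were kept. The 168 wells of no time point entered no comparison. Counts were summed over 3 well classes in 3 pools and fitted with edgeR 4.0.16 (R 4.3.3) by its quasi-likelihood test, with TMM scaling and pool as a block. The 12 genes of the rule were left out of testing, as were genes under 30 UMIs except in alternatives with another filter. DESeq2 1.42.0 was an alternative. Each pool is 1 sample of its time point, so times were not tested. With pool as a block, p-values rest on how class differences varied over 3 pools that differ in age and strain. They do not measure the spread between the wells of a pool. Counting intervals came from scipy 1.17.1. Thinning used seed 0. Wells were single-cell sorted and no doublet caller was run. Of 301 listed genes, 290 matched the files, 4 by a synonym in RefSeq.

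Members and gene lists were chosen with earlier results of these data known. Genes were named by a rule of smallest adjusted p with the same direction in 3 pools (15 on each side against Rgs5=0 wells, 10 on each side against the endothelial class), by list membership, by the ratio of 13 weeks to 2 days and by abundance. Scripts were tested on simulated data. The alternatives tried were other gene minimums and filters, thinning, read counts, scaling, the pool term, DESeq2, and leaving out pools or wells.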

Additional observations from a re-analysis of the deposited data

Results flagged for a closer look

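For 7 of the 73 genes called against Rgs5=0 wells, 1 pool went the other way. In 3 more (Abcc9, Hba-a2 and Hbb-bt) both classes were at 0 in 1 pool. With 1 pool per time point, these differences between pools were not tested. Members minus Rgs5=0 wells, in UMIs per 10000, came to 0.378 for Abi3bp and 1.71 for Gsn at 2 days, where both genes were lower in members over all pools. At 6 weeks they came to 1.44 for Col12a1, 17.2 for Col1a2, 14.7 for Sparc and 1.35 for Hbb-bs, again genes lower in members over all pools. S100a8, higher in members over all pools, came to -1.5 at 2 days.

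Against the Rgs5 wells with an endothelial UMI, Hba-a1 came to 0.732 at 2 days and 0.356 at 13 weeks, and Hbb-bs to 2.2 at 2 days, although both were lower in members over all pools, where 1 well of the endothelial class held 446 of its 453 hemoglobin UMIs.

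The 168 wells with no time point in their labels, all on the 6-week plate, also held Rgs5. Of the 144 with 200 or more genes, 26 had an Rgs5 UMI (18.1%, interval 12.1 to 25.3%), at a median depth of 1423.5 UMIs. They held 147 Rgs5 UMIs, up to 50 in a well, and 23 met the rule for members. They were used in no comparison.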

How the results depend on the processing

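Counts of called genes moved more than directions did. They are given here as genes higher and lower than in Rgs5=0 wells (22 and 51 in the report), then higher and lower than in the Rgs5 wells with an endothelial UMI (22 and 34). Read counts gave 6 and 2, then 9 and 11. Rule and levels read on separate parts of each well gave 7 and 29, then 7 and 11. Wells thinned to 300 UMIs gave 9 and 16, then 6 and 8. With no filter on low counts the values were 8 and 204, then 11 and 20. Requiring 300 genes left 36 members and gave 14 and 31 in the first comparison. Requiring 2 Rgs5 UMIs left 37 members and gave 101 lower, then 2 and 14. With edgeR's filterByExpr, 14 were higher and 15 lower, then 16 lower. The rule on thinned wells gave 5 and 3 in the second comparison. Lower genes in the first comparison numbered 31 without the deepest 5% of wells, 30 by library size alone and 13 with DESeq2, which gave 18 lower in the second. Without the replicate block, that is without pool as a term, 20 were lower in the first comparison, then 12 higher and 18 lower. The pools carry no replicate numbers shared between groups beyond this pairing of classes within a pool. Leaving out 1 pool gave 4 to 14 and 8 to 24, then 7 to 16 and 10 to 18. The cause of these moves was not tested, apart from the fewer genes or wells that some settings leave.

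Of the single genes, Gsn (-0.18) and Mgp (-0.00096) against the endothelial class changed sign when 2 Rgs5 UMIs were required. No other named gene did so in any alternative, and 156 of their values fell short of the threshold. The difference in the share of members between 13 weeks and 2 days stayed within its interval. A pair of alternatives was chosen after seeing the data. Without wells of 10 or more immune UMIs 17 and 42 genes were called, then 20 and 34, and with the rule read on read counts 22 and 60, then 22 and 40. With a median of 506 UMIs per member, genes under 30 UMIs were left out of the main fit. With no filter on low counts they were tested as well.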
